A study of Mus musculus with 12 samples.

Results

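Intestinal stem cell genes are 9 genes, Lgr5, Ascl2, Smoc2, Axin2, Rnf43, Znrf3, Prom1, Sox9 and Lrig1, chosen by name. All 9 were found among the 32689 genes of the normalized colon table. The colon libraries came from 6 male C57BL/6 mice, each giving 1 library of total RNA depleted of ribosomal RNA. Mice 1, 2 and 4 are labelled ulcerative colitis (UC), the state produced here by dextran sulfate sodium (DSS), a detergent-like polymer that injures the colonic epithelium, given at 1.5% in the drinking water for 7 days. Mice 7, 8 and 9 are labelled control and drank water without DSS, and all animals were killed on day 8. Per the study's methods the mice that were sequenced were picked by their disease activity scores.

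The colonic epithelium is renewed from stem cells at the base of the crypts. Wnt ligands keep these cells dividing through beta-catenin and its TCF partners, and R-spondins strengthen the signal by binding LGR receptors and drawing the ubiquitin ligases RNF43 and ZNRF3 away from the Frizzled receptors. Lgr5 encodes such a receptor, Ascl2 a transcription factor of the stem cell programme, and Axin2, Rnf43 and Znrf3 are Wnt targets that feed back to dampen the pathway. Smoc2 encodes a secreted matrix protein, Sox9 a transcription factor of the lower crypt, and Lrig1 a membrane protein that restrains ERBB receptors. Prom1 encodes the membrane protein CD133, which in the mouse intestine is also made outside the stem cells.

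Total counts per colon library ran from 69181049 to 103662306, and the 3 highest totals belonged to the libraries labelled UC. Colon identity was plain: Krt8, a keratin of simple epithelia, had at least 330742 counts in each colon library and at most 88 in each blood library of the same mice. The disease labels were less plain. S100a8, a neutrophil protein gene, had normalized counts (counts divided by one factor per library) of 5370, 33.1 and 22.3 in mice 1, 2 and 4, all labelled UC. Its values were 1888, 75.6 and 13337 in mice 7, 8 and 9, all labelled control. Mice 1, 7 and 9 therefore stood above mice 2, 4 and 8 on both sides of the label, and the groups are called labelled UC and labelled control throughout. The deposited normalized tables list their columns in the mouse order 1, 7, 9, 2, 4, 8, which names no group. Whether disease labels were exchanged between mice was not tested and cannot be settled from these labels. An exchange would change the size and could change the sign of every fold between the labels given here.

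Lgr5, the receptor that marks crypt base stem cells, had 103, 794 and 641 normalized counts in mice 1, 2 and 4, labelled UC. It had 123, 725 and 34.2 in mice 7, 8 and 9, labelled control. Mice 2, 4 and 8 were high and mice 1, 7 and 9 low, so the labelled groups overlapped, and the highest library exceeded the lowest 23.2-fold. Lgr5 is on GRCm38 chromosome 10 from 115450311 to 115587780 on the minus strand. In these bulk libraries, fewer cells of a type and less RNA per cell cannot be told apart.

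Ascl2, which acts with Wnt signals to hold the stem cell state, had 16.1, 222 and 178 normalized counts in mice 1, 2 and 4. It had 19.0, 147 and 119 in mice 7, 8 and 9. Mouse 9 separated both genes: it had the lowest Lgr5 of the 6 libraries and an Ascl2 level near that of mouse 8. The ratio of Lgr5 to Ascl2 was 0.288 in mouse 9 and between 3.58 and 6.47 in the other 5 libraries. The Ascl2 values of mice 1 and 7 rest on 17 and 15 counts.

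Smoc2 had 1293, 2603 and 1899 normalized counts in mice 1, 2 and 4, and 775, 1617 and 1421 in mice 7, 8 and 9. Its libraries lay closer together, with the highest 3.36-fold above the lowest. Mice 2, 4 and 8 again held the 3 highest values, mouse 9 being close behind mouse 8.

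Among the feedback genes, Axin2, a scaffold of the complex that degrades beta-catenin, had 457, 1994 and 1072 normalized counts in mice 1, 2 and 4, and 478, 1592 and 760.3 in mice 7, 8 and 9. Rnf43 had 972, 2231 and 1971 in mice 1, 2 and 4, and 904, 2701 and 1117 in mice 7, 8 and 9. Znrf3, its paralog, had 578, 1559 and 907 in mice 1, 2 and 4, and 764, 1390.3 and 806 in mice 7, 8 and 9. All 3 feedback genes had their highest values in mice 2, 4 and 8, and mouse 9 came next in each. The ratio of Rnf43 to Znrf3 stayed between 1.18 and 2.17. The root mean square difference between their centred log2 values over the 6 libraries, 0.299, was the smallest of any pair of the 9 genes. Axin2 and Rnf43 were almost as close, at 0.300.

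Sox9 had 1534, 5189 and 1602 normalized counts in mice 1, 2 and 4, and 1311, 3036 and 1558 in mice 7, 8 and 9. Only mice 2 and 8 stood out, since mouse 4 was 1.03 times mouse 9. Lrig1 varied least, with 8112, 13731 and 10232 in mice 1, 2 and 4, and 7834, 8796 and 9899.7 in mice 7, 8 and 9. Its highest library was 1.75 times its lowest, and mouse 9 rather than mouse 8 followed mice 2 and 4.

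Prom1 ran the other way. It had 88921, 6053 and 13350.2 normalized counts in mice 1, 2 and 4, and 58672, 12909.7 and 28843 in mice 7, 8 and 9. Its 3 highest values were in mice 1, 7 and 9, where Lgr5 was lowest, and its highest library was 14.7 times its lowest. The ratio of Prom1 to Lgr5 was 861, 478 and 844 in mice 1, 7 and 9 and 7.62, 20.8 and 17.8 in mice 2, 4 and 8. Lgr5 and Prom1 had the most distant patterns of any pair of the 9, with a root mean square difference of 2.86 on the log2 scale.

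**Figure D1:**
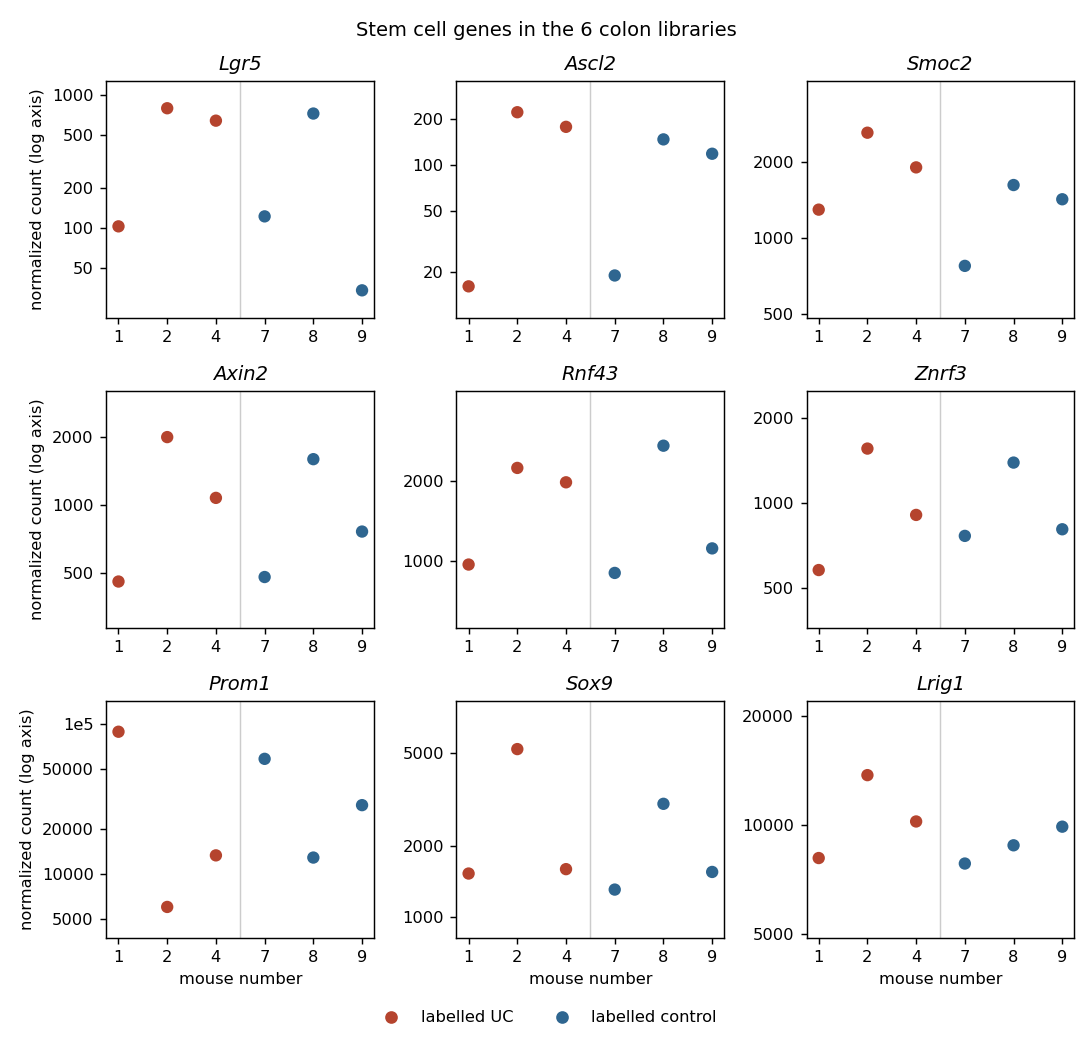
Normalized count (log axis) of each of the 9 genes in each colon library, by mouse number, with the disease label given by colour; each point is 1 library. Lgr5 was between 641 and 794 in mice 2, 4 and 8 and between 34.2 and 123 in mice 1, 7 and 9, and Prom1 was highest in mice 1, 7 and 9.

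In all, 7 of the 9 genes had their 3 highest values in mice 2, 4 and 8, against 14.7% of the 22182 colon genes tested that are in the normalized table. Prom1 alone of the 9 had them in mice 1, 7 and 9, an order held by 18.2% of those genes. These orders were noticed in the data, cut across the labels, and were not tested. Neutrophil genes moved with them: all 6 of the list (S100a8 and Lcn2 among them) were highest in mice 1, 7 and 9, and their summed level ran from 271 to 13424 in libraries labelled UC and from 439 to 45581 in libraries labelled control. All 6 T cell genes were also highest in mice 1, 7 and 9, with sums from 352 to 1197 and from 296 to 1749. The part of these cells in the levels of the stem cell genes was not tested.

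Per kilobase of exon, which allows levels of different genes to be compared, the median normalized count was highest for Prom1 (2940 per kb) and then Lrig1 (1674). The libraries of these genes overlapped, but all values of Sox9 (median 382) lay below all values of Lrig1. Rnf43 (235), Smoc2 (219), Axin2 (166), Znrf3 (108), Ascl2 (82.0) and Lgr5 (37.2) followed, and the ranges of each gene and the next in this order overlapped.

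The design compares the colon labelled UC with the colon labelled control, and the folds below hold for the labels as deposited, with the doubt given above. None of the 9 genes was called, at an adjusted p of at most 0.05 and an absolute log2 fold change (log2FC) above 1 by edgeR's quasi-likelihood test, against 0.0045% of the 22238 genes tested. None had an unadjusted p under 0.05, against 1.41% of all genes, and DESeq2 and limma-voom also called 0 of the 9. The labelled groups overlapped for all 9, while they were apart for 5.66% of genes (UC higher for 3.51%). Since nothing in the labels goes beyond 1 library per mouse, p-values measure the spread between these samples.

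Smoc2 had the lowest p, with a log2FC of 0.59 (SE 0.366, n = 3 against 3, edgeR adjusted p = 1.00), labelled UC over labelled control. Lgr5 had a log2FC of 0.78 with an SE of 1.17, and Ascl2 0.53 with an SE of 1.04. Prom1 had 0.09 with an SE of 1.03, so that the error was many times the estimate. The remaining genes lay between 0.02 for Znrf3 and 0.48 for Sox9. All 9 estimates were above 0, as were 49% of all genes, but those of Znrf3 and Prom1 were below 0 by limma-voom. Their median was 0.30 against -0.01 over all genes. Leaving out mouse 8 put the log2FC of Lgr5 at 2.71 (edgeR adjusted p = 0.586), and leaving out mouse 1 put that of Prom1 at -1.80 (edgeR adjusted p = 0.971).

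**Figure D2:**
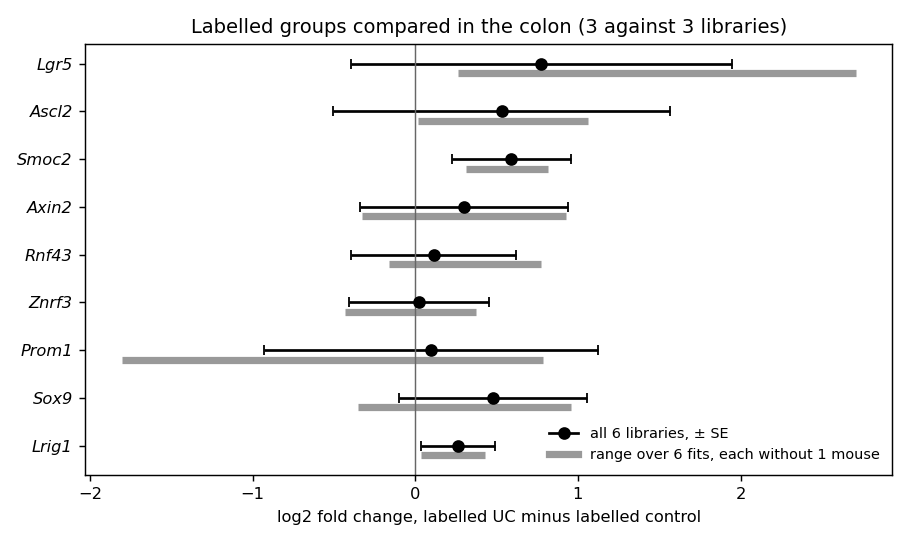
Log2 fold change of the 9 genes, labelled UC over labelled control, in the colon (points) with its standard error (bars). The 9 estimates ran from 0.02 to 0.78, and none was called.

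Crypt cells are only a portion of the epithelium, so each gene was also set against the mean log2 level of 10 general epithelial genes. Lgr5 differed from that mean by -5.60, -5.99 and -6.00 log2 units in mice 2, 4 and 8, and by -8.86, -8.87 and -10.12 in mice 1, 7 and 9. On this scale 5 genes kept their 3 highest values in mice 2, 4 and 8, namely Lgr5, Ascl2, Axin2, Rnf43 and Znrf3, and Prom1 kept its own in mice 1, 7 and 9. Smoc2 and Lrig1 were then highest in mice 2, 4 and 9, and Sox9 in mice 2, 8 and 9. The reference itself differed between these mice in 1 of its genes. Cdx2 had 12701, 1411 and 1216 normalized counts in mice 1, 2 and 4, and 11069, 1228 and 3808 in mice 7, 8 and 9. Not all of these orders hold with Cdx2 left out of the reference. Mouse 9 then passes mouse 8 for Ascl2 and mouse 4 for Znrf3. The same 2 changes come with Epcam alone as the reference. Epcam had 73680, 95818 and 56259 normalized counts in mice 4, 8 and 9. The spread of Lgr5 barely altered, at 4.52 log2 units from lowest to highest against 4.50 without the reference. That of Prom1 narrowed to 3.55 from 3.88. The spreads of all the other genes widened, as for Lrig1 (1.39 against 0.81) and Smoc2 (2.33 against 1.75). Between the labels, two-sided exact permutation p-values for the 9 genes ran from 0.2 to 0.9, where 0.1 is the smallest that 3 against 3 allows. The difference of Prom1 was -0.38 on this scale and those of the other 8 genes were above 0. But leaving out mouse 2 put Ascl2, Axin2, Znrf3 and Sox9 below 0 and Prom1 above it. Leaving out mouse 7 put Ascl2, Axin2, Rnf43 and Znrf3 below 0 and Prom1 at 0.01. Leaving out mouse 4 put Ascl2 at -0.07.

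**Figure D3:**
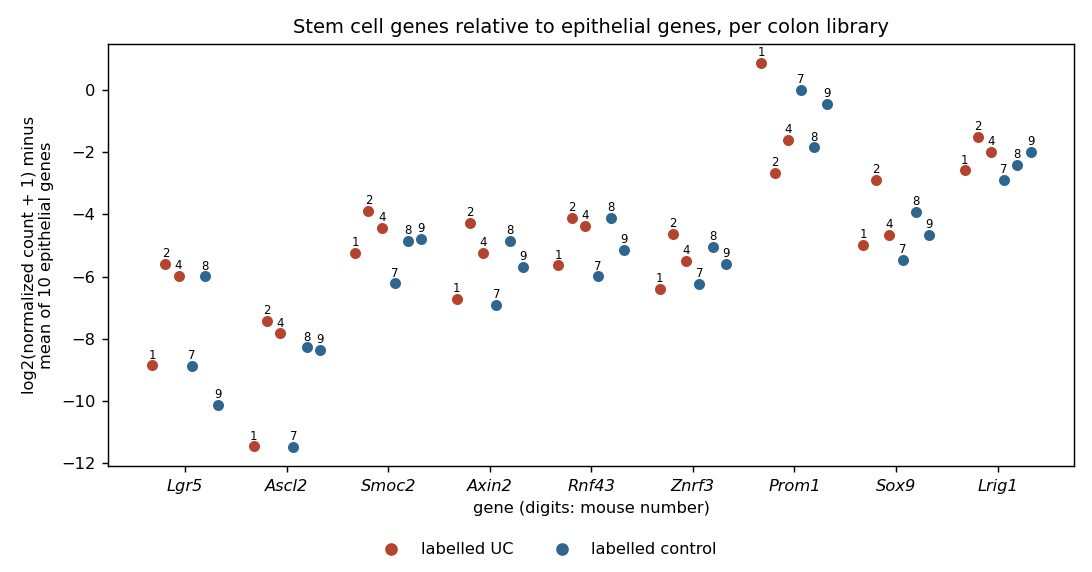
Log2 normalized count of each of the 9 genes minus the mean log2 of 10 epithelial genes, by mouse, with the disease label by colour. Lgr5 spans 4.52 log2 units, and Prom1 is the gene whose highest values are in mice 1, 7 and 9.

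All 9 genes had more counts, relative to the library total, in every colon library than in any blood library. Ascl2 and Sox9 had 0 counts in all 6 blood libraries, and Lgr5 had 0 to 41. Lrig1 and Znrf3 were the most counted in blood, with 395 to 854 and 169 to 422 counts. Olfm4, a stem cell marker of the mouse small intestine, had at most 46.8 normalized counts in the colon.

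The promoters of Ascl2 and Axin2, whose transcripts followed mice 2, 4 and 8, and of Prom1, which followed mice 1, 7 and 9, are shown for comparison. Each is 250 bases before to 50 after a RefSeq start site on GRCm38.p6, 5′ to 3′ along the gene, and capitals mark CTTTGA, the core letters bound by TCF factors, searched on both strands.
Ascl2, chr7:142969215-142969514, minus strand: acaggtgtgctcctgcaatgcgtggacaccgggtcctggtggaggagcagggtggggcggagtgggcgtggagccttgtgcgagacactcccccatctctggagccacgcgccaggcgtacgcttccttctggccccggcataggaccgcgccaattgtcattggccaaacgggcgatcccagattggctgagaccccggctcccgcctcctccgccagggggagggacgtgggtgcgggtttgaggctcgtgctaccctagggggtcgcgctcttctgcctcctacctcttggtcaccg
Axin2, chr11:108920099-108920398, plus strand: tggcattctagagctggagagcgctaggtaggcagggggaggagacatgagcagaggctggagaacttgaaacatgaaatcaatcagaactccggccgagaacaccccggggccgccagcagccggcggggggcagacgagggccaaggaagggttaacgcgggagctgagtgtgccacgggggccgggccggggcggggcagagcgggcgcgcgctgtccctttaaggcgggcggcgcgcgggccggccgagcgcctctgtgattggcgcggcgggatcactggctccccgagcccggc
Prom1, chr5:44094719-44095018, minus strand: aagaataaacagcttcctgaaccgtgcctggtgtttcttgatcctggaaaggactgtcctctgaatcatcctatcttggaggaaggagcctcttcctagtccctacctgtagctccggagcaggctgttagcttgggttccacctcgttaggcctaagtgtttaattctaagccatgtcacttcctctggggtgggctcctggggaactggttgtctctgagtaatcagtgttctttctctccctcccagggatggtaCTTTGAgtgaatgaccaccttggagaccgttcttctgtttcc
Prom1, chr5:44101687-44101986, minus strand: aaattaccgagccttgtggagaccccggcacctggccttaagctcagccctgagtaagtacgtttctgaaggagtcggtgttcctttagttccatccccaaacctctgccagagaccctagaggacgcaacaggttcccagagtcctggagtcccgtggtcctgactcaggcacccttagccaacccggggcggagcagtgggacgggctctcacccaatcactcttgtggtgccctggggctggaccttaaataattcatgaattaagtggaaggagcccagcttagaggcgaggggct
Of the 9 genes, 5 had an entry (Ascl2, Axin2, Lrig1, Prom1 and Rnf43), with 7 windows in all. CTTTGA was in 1 of the 7, the first Prom1 window, 8 bases after the start site, and in 16% of all 32851 promoters. The longer CTTTGAT, which contains it, was in 0 of the 7 and in 3.73% of all promoters. These letters are a description of the window only.

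For each gene the 2 other genes with the most alike pattern were found among 15833 candidates, by the root mean square difference of centred log2 values over the 6 libraries. Lgr5 was most like Smpx, a small muscle protein gene, at 0.30 log2 units, and Ascl2 most like Etv4, an ETS transcription factor gene, at 0.21. Hoxb13, a posterior homeobox gene, was the next for Ascl2, with 2471, 28174 and 30119 normalized counts in mice 1, 2 and 4, and 2897, 30035 and 13692 in mice 7, 8 and 9. It was low in mice 1 and 7 and intermediate in mouse 9, as Ascl2 was. Axin2 was most like Gli1, a Hedgehog target, at 0.17, Rnf43 most like Stim1, a calcium sensor of the endoplasmic reticulum, at 0.09, and Lrig1 most like Zfp597 at 0.06. Prom1 was most like the pseudogene Btnl7-ps at 0.22 and then B4galnt2, a glycosyltransferase gene, at 0.24. Reads of Btnl7-ps may be shared with related Btnl genes.

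**Figure D4:**
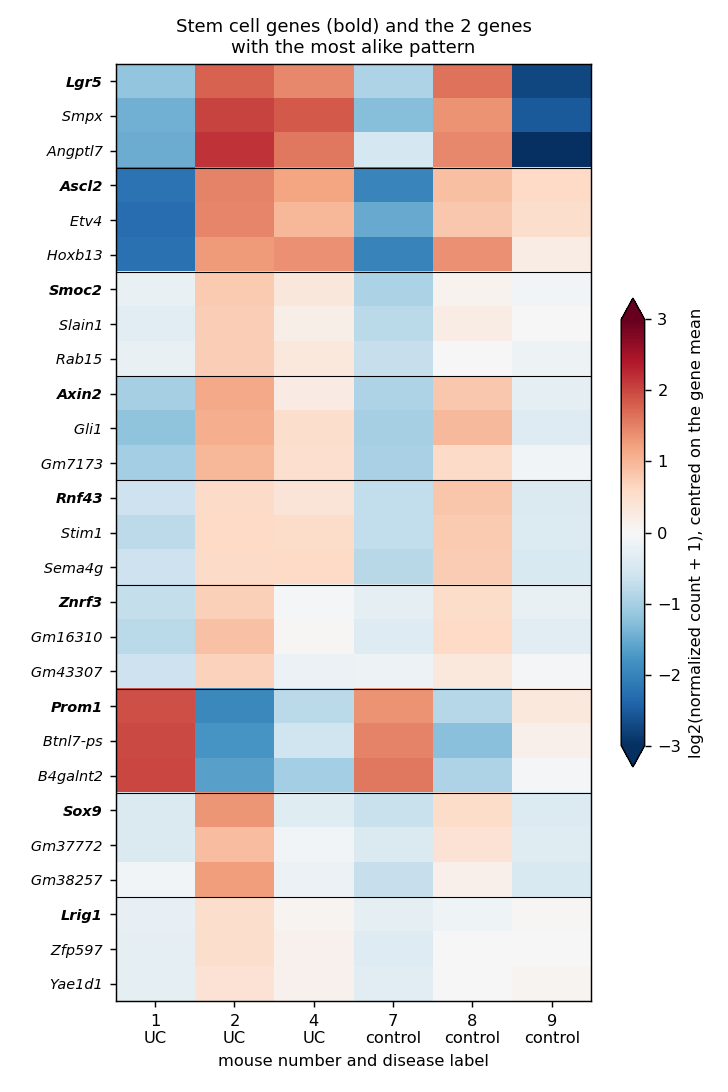
Centred log2 normalized count of each of the 9 genes (bold) and of the 2 genes with the most alike pattern, by mouse and disease label. Hoxb13 and Etv4 share with Ascl2 the low values in mice 1 and 7.

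In the Wnt pathway around these genes, as in the lists that follow, a count of 0 calls is the background, since 0.0045% of all genes were called. Of 29 Wnt receptor and transducer genes, 28 were tested and 0 were called, 0 had an unadjusted p under 0.05, while 5 peaked in mice 2, 4 and 8 (14.7% of all genes did), as 6 others did in mice 1, 7 and 9 (18.2% of all genes). Of 24 further Wnt target and feedback genes in the table, 21 were tested and 0 were called, with 0 at an unadjusted p under 0.05 and a median log2FC of -0.18. Ephb2, a crypt receptor tyrosine kinase, had the lowest p of these (log2FC -0.54, SE 0.271, edgeR adjusted p = 1.00). Of the 21 target and feedback genes tested, 3 were highest in mice 2, 4 and 8 (14.7% of all genes were). In mice 1, 7 and 9, 5 of the 21 were highest (18.2% of all genes). Ctnnb1, which encodes beta-catenin, ran from 44994 to 72545 normalized counts, with its highest values in mice 7 and 1.

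Niche signals came from 14 genes for R-spondins and Wnt ligands, of which 10 were tested and 0 were called. Wnt2 was the 1 gene with an unadjusted p under 0.05 (log2FC 1.10, SE 0.444, edgeR adjusted p = 1.00), at 80.5, 59.2 and 43.7 normalized counts in mice 1, 2 and 4 and 25.3, 37.8 and 21.6 in mice 7, 8 and 9. Its labelled groups did not overlap, at low levels. Rspo3 had the highest mean normalized count of the ligands (679), close to Wnt5a (667), with no correction for gene length. Rspo3 was highest in mouse 7 (1222) and lowest in mouse 4 (408). Among 16 genes of BMP signalling and its antagonists, all tested with 0 called and 0 at an unadjusted p under 0.05, Grem1, a BMP antagonist of the crypt niche, had 13136, 4775 and 3082 in mice 1, 2 and 4, and 20132, 2327 and 53149 in mice 7, 8 and 9. Grem1 was high where Lgr5 was low, but 5 of the 16 were highest in mice 2, 4 and 8 (14.7% of all genes were). In mice 1, 7 and 9, 3 of the 16 were highest (18.2% of all genes).

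Of 24 other crypt base and progenitor genes, 23 were tested, 0 were called, and Igfbp4 was the 1 gene with an unadjusted p under 0.05 (log2FC -1.34, SE 0.528, edgeR adjusted p = 1.00). Slc12a2, a chloride cotransporter of crypt cells, had a log2FC of 0.56 (SE 0.239, edgeR adjusted p = 1.00). Of the 23 crypt base and progenitor genes tested, 4 were highest in mice 2, 4 and 8, against 14.7% of all genes. In mice 1, 7 and 9, 5 of the 23 were highest, against 18.2% of all genes. The 10 proliferation genes departed from Lgr5 in mouse 9, which was the highest library for all 10. In 9 of the 10 mice 2, 4 and 8 came next, above mice 1 and 7, Ccnb1 being the exception. Mki67, a marker of cycling cells, had 9577, 16335 and 14651 normalized counts in mice 1, 2 and 4, and 9826, 15552 and 35229 in mice 7, 8 and 9. Mouse 9 thus had the most Mki67 and the least Lgr5. Of 11 genes that rise in injured epithelium, 0 were called, and Anxa1 was the 1 with an unadjusted p under 0.05 (log2FC -0.64, SE 0.240, edgeR adjusted p = 1.00).

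Genes of other cell types also differed between libraries. Fabp2, an enterocyte gene of the small intestine, reached 12105 normalized counts in mouse 1 and 21076 in mouse 7, no other library exceeding 710.2. Alpi, of the same list of 6, was at 1881 and 1278.5 in mice 1 and 7 and at most 74.7 elsewhere, but Lyz1 stayed between 545 and 894, Fabp6 was highest in mouse 7 (399.6), and Apoa4 and Defa24 did not exceed 21.4. Abca12, a lipid transporter gene of squamous epithelium, reached 24321 in mouse 1 and 24051 in mouse 7 but no more than 25.2 elsewhere. Krt5, a defining squamous keratin, had at most 9.0 in any library. Other genes of this list had other orders. Dsg3 was highest in mice 9 and 7 (487 and 158), as was Krt13 (172 and 86.0). Krt14 was highest in mouse 1 (218), and Krt10, Krt1 and Trp63 did not exceed 105. The sums of the 6 fibroblast genes ran from 85641 to 131799 in libraries labelled UC and from 77685 to 226133 in libraries labelled control, and 3 of the 6 were highest in mice 1, 7 and 9, against 18.2% of all genes. Smooth muscle genes, 6 in all, summed to 228690, 534675 and 409540 in mice 1, 2 and 4, and to 362013, 350885 and 128101 in mice 7, 8 and 9, lowest in mice 9 and 1. Of 10 absorptive colonocyte genes, 4 were highest in mice 2, 4 and 8 (Car4, Slc26a3, Aqp8 and Slc37a2), against 14.7% of all genes. In mice 1, 7 and 9, 2 were highest, against 18.2% of all genes. Car1, with the highest mean of the list, was highest in mice 7 and 1 (740809 and 580934 normalized counts). Krt20, with the lowest p (101608 and 58168), and Guca2a were also highest in mice 7 and 1. Aqp8, a water channel gene, had 3265, 25439 and 51237 normalized counts in mice 1, 2 and 4, and 13308.5, 45832 and 4809 in mice 7, 8 and 9. The part of these levels in the stem cell genes was not tested.

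**Figure D5:**
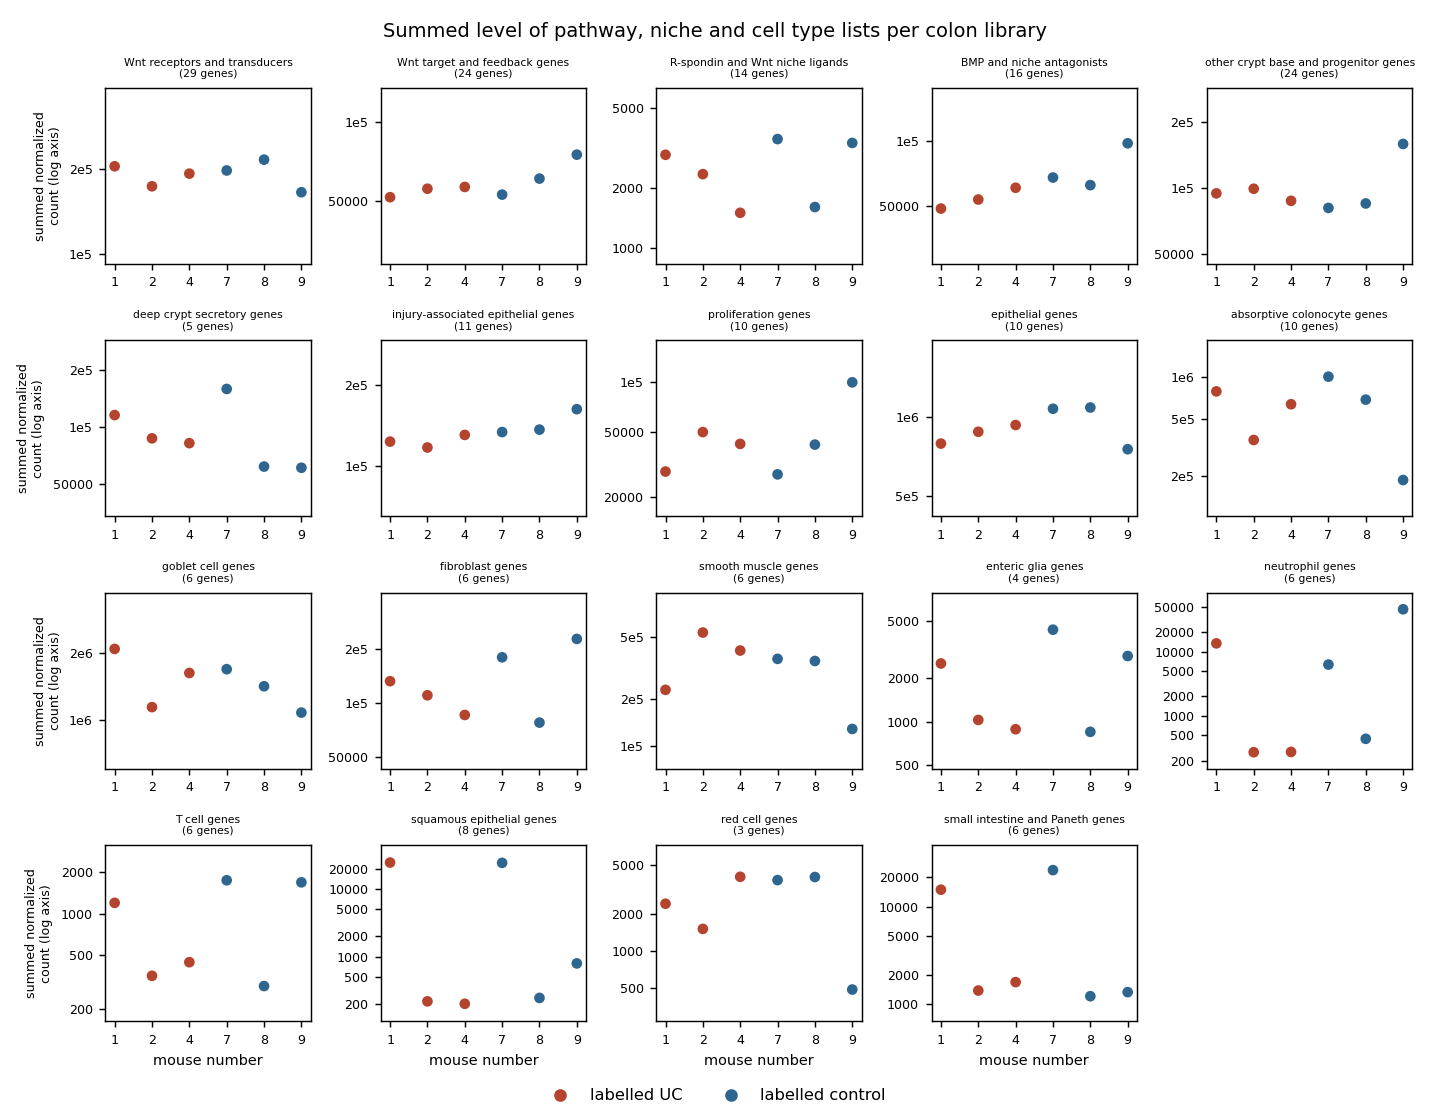
Summed normalized count (log axis) of each pathway, niche and cell type list in each colon library, by mouse number, with the disease label by colour. Neutrophil sums are from 6277 to 45581 in mice 1, 7 and 9 and at most 439 in mice 2, 4 and 8.

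No library strand was set in the counting, so reads of overlapping genes may be told apart only in part. Prom1 shares 424 exon bases with the antisense gene Gm16401, which had 29 to 152 counts, and Lrig1 shares 144 with Slc25a26, which had 345 to 671. Axin2 shares 209 with Gm11670, which had 0 counts in the 6 libraries.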

How the data were processed

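Total RNA was measured in colon and blood of 6 mice. The labels give the tissue in 2 fields that contradict each other, and the tissue characteristic was used because Krt8 and the red cell gene Alas2 bear it out. Per the labels and methods, the authors aligned reads with STAR (GRCm38) and used StringTie 1.3.4c for quantification. The deposited counts are whole numbers derived from transcript coverage, and StringTie was run without a library strand, spliced reads carrying the strand of their intron motif. The deposited normalized values are a signal, which the authors made by dividing each count by one factor per library (0.791 to 1.21 in the colon, the same for every gene to within 1e-06).

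The colon counts were tested alone, 3 labelled UC against 3 labelled control, in R 4.3.3 with edgeR 4.0.16 (filterByExpr, TMM, quasi-likelihood test, Benjamini-Hochberg adjustment over all genes tested). The code was checked on simulated data with a smaller dispersion than the 0.253 fitted to these data. That check therefore does not measure how many changes would be found here. DESeq2 1.42.0, limma-voom (limma 3.58.1), other filters and scalings, all 12 libraries, thinned counts and leaving out each mouse were alternatives. Log2 levels used a pseudocount of 1. Alike genes had a mean normalized count of at least 100. Gene positions came from GENCODE vM21 and promoters from RefSeq.

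The naming rule took the 9 genes, 2 alike genes for each and library markers (S100a8, Lcn2, Epcam, Krt5). From other lists it took the gene with the highest mean normalized count and that with the lowest p. Not every gene of this rule is given in the text. The deep crypt secretory and goblet cell lists are shown only in the figure of summed lists. Fabp2 and Abca12 are such genes with the highest mean. Olfm4, Alpi, Lyz1, Apoa4, Defa24, Aqp8, Car4, Slc26a3, Slc37a2, Guca2a, Cdx2, Wnt5a, Dsg3, Krt14, Krt10, Krt1 and Trp63 were named after their values were seen. The members and lists were chosen with earlier results of these data known. Colon totals of 69181049 to 103662306 leave counting error small except for Ascl2 and Lgr5 in their lowest libraries.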

Additional observations from a re-analysis of the deposited data

How the results depend on the processing

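None of the 9 genes was called under any alternative (edgeR, DESeq2 or limma-voom). Over all genes the count of calls was 1 by edgeR, 6 by DESeq2 and 0 by limma-voom, and from 0 to 0 when each mouse was left out. It was 0 without mice 7 and 9, and 0 without mice 2 and 4, both chosen after seeing the data. The direction of the labelled difference was unstable. By limma-voom the log2FC was -0.0114 for Znrf3 and -0.55 for Prom1. Leaving out one mouse at a time, it ran from 0.26 to 2.71 for Lgr5, 0.01 to 1.06 for Ascl2, 0.31 to 0.82 for Smoc2, -0.33 to 0.93 for Axin2, -0.16 to 0.77 for Rnf43, -0.43 to 0.37 for Znrf3, -1.80 to 0.79 for Prom1, -0.35 to 0.95 for Sox9 and 0.04 to 0.43 for Lrig1. Without mice 7 and 9 it was -0.50 for Lgr5, -0.0922 for Ascl2, -0.44 for Axin2, -0.65 for Rnf43, -0.46 for Znrf3 and -0.13 for Sox9. It was then above 0 for Prom1 (1.47), Lrig1 (0.28) and Smoc2 (0.25). Without mice 2 and 4 it was -1.52 for Lgr5, -2.56 for Ascl2, -1.06 for Axin2, -0.71 for Rnf43, -0.79 for Znrf3, -0.37 for Sox9 and -0.14 for Lrig1. For Prom1 it was then 1.39 and for Smoc2 0.01. Relative to the epithelial genes, the difference without mouse 2 was -0.27 for Ascl2, -0.17 for Axin2, -0.31 for Znrf3, -0.14 for Sox9 and 0.39 for Prom1. Without mouse 7 it was -0.59 for Ascl2, -0.14 for Axin2, -0.09 for Rnf43, -0.17 for Znrf3 and 0.01 for Prom1. Without mouse 4 it was -0.07 for Ascl2. The cause was not tested. A log2FC with 1 library left in an arm assumes that it varies like the others. The 18 alike genes were the same with a pseudocount of 0.5. No paired analysis was possible because the libraries labelled UC and labelled control in the colon share no mouse number. Depth limits Ascl2 in mice 1 and 7 (17 and 15 counts) and Lgr5 in mouse 9 (38 counts).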
